A study of Mus musculus with 7 samples.

Results

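The pro-apoptotic members of the Bcl-2 family were examined in dorsal skin of aged mice treated with the senolytic ABT-263. The list held 10 genes chosen by their known role, of the 55450 genes in the count table: the effectors Bax, Bak1 and Bok and the BH3-only genes Bid, Bad, Bik, Bmf, Bbc3 (which encodes PUMA), Pmaip1 (NOXA) and Bcl2l11 (BIM). All 10 were found in the table and all 10 passed the filter on low counts, with 36 to 2935 read pairs per library. Wild type male C57BL/6 mice of 24 months received 5 μM ABT-263 in DMSO (3 mice, numbered 476 to 478) or the vehicle DMSO alone (4 mice, numbered 480 to 483) on the dorsal skin for 5 days. In both groups the hair had been removed with clippers and a depilatory lotion, and the skin was kept under a semi-occlusive dressing. Each library was made from the whole skin homogenate of 1 mouse, so that fewer cells of a type and less RNA per cell cannot be told apart.

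Bcl-2 family proteins control whether the outer membrane of the mitochondrion is opened, the step that commits a cell to intrinsic apoptosis. BAX and BAK assemble into pores in that membrane, and the anti-apoptotic members, BCL-2 and BCL-xL among them, hold them in check. BH3-only proteins carry a short helix, the BH3 domain, which docks into a groove of the anti-apoptotic proteins, and ABT-263 is a small molecule that occupies the same groove in BCL-2, BCL-xL and BCL-W. Much of the control of BH3-only proteins is by cleavage, phosphorylation or sequestration, which counts of mRNA do not show.

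The BH3 domain is the feature that effectors and BH3-only proteins share, and the coding bases of its core are shown for 9 of the members, 36 bases each, with the codons of the conserved leucine and aspartate in capitals. They were taken from the longest complete coding transcript of each gene in GENCODE M21 (GRCm38), where a leucine followed 5 residues later by an aspartate, with a hydrophobic residue before a small one just ahead of it, was found at 1 place in each of these 9 proteins. Pmaip1 had 2 such places, and its bases are not shown.
Bax: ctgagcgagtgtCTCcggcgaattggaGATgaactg
Bak1: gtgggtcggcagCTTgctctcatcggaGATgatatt
Bok: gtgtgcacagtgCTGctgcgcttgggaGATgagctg
Bid: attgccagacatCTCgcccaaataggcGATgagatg
Bad: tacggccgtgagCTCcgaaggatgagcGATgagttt
Bik: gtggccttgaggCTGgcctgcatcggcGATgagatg
Bmf: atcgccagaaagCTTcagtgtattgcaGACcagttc
Bbc3: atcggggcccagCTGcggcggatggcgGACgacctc
Bcl2l11: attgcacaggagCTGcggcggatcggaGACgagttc
The stretch of Bax lies at chr7:45466000-45466035 on the minus strand, in coding exon sequence of exon 3. That of Bid lies at chr6:120897292-120897327, minus strand, in exon 4, and that of Bmf at chr2:118545103-118545138, minus strand, also in exon 4. That of Bcl2l11 lies at chr2:128147138-128147173 on the plus strand in exon 3. The most alike pair was Bbc3 and Bcl2l11, with 24 of 36 bases identical, followed by Bmf and Bcl2l11, Bid and Bik, and Bak1 and Bik, each with 23. Of the 5 complete coding transcripts of Bcl2l11, 4 encode the core, and the gene counts do not separate them from the other one.

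Libraries held 20344364 to 43562330 counted read pairs, the treated ones all being larger than the controls. ABT-263-treated mouse 476 stood apart from the other treated mice, with Spearman correlations across genes of 0.954 and 0.961 to mice 477 and 478 against 0.979 between those. ABT-263-treated mouse 477 correlated best, at 0.974, with DMSO-treated mouse 480 among the controls, which itself had 0.958 to mouse 481. DMSO-treated mouse 481 had summed hair follicle markers of 2391 CPM against 18.9 to 25.2 CPM in the other DMSO-treated mice. Among the treated mice that sum was 436 CPM in mouse 478 against 1.11 and 4.71 CPM in mice 476 and 477. Summed basal keratinocyte markers (Krt5, Krt14, Krt15, Itga6 and Col17a1) were at 13636 to 35651 CPM in every library. Levels are in CPM, read counts scaled to library size with TMM factors, unless stated. Each gene was tested with the two-sided quasi-likelihood test of edgeR, and p-values were adjusted (Benjamini-Hochberg) over the 17959 genes that its filter on expression kept, at a threshold of 0.05. SE denotes the standard error of a log2 fold change.

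Compared per length, as FPKM (CPM divided by the merged exon length in kilobases), the members fell into an abundant and a scarce group. In DMSO-treated skin Bax was at 31.0 ± 3.55 FPKM (SD, n = 4), Bok at 29.9 ± 5.74, Bad at 21.5 ± 3.88 and Bak1 at 18.7 ± 3.67. Next came Bbc3 at 6.35 ± 1.05 FPKM, Pmaip1 at 3.16 ± 1.77 and Bik at 1.97 ± 0.723. The lowest were Bcl2l11 at 1.26 ± 0.134 FPKM, Bmf at 1.16 ± 0.277 and Bid at 1.03 ± 0.212. The ranges of neighbours in this order overlapped across the 4 mice except between Bok and Bad and between Bak1 and Bbc3. The 3 effectors and Bad were thus the most abundant transcripts of the list, and all other BH3-only genes lay below them in every DMSO library. After ABT-263 the same 4 genes led, Bok at 33.5 ± 6.00 FPKM (SD, n = 3), Bax at 32.1 ± 7.62, Bak1 at 26.7 ± 8.48 and Bad at 19.7 ± 1.38, while Bmf at 3.30 ± 1.25 and Bid at 2.34 ± 0.931 stood above Bik at 1.82 ± 0.637. With the longest transcript as the length, the order of Bax and Bok, of Bad and Bak1 and of Bbc3 and Pmaip1 after ABT-263 turned, and after DMSO that of Bmf and Bid.

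**Figure D1:**
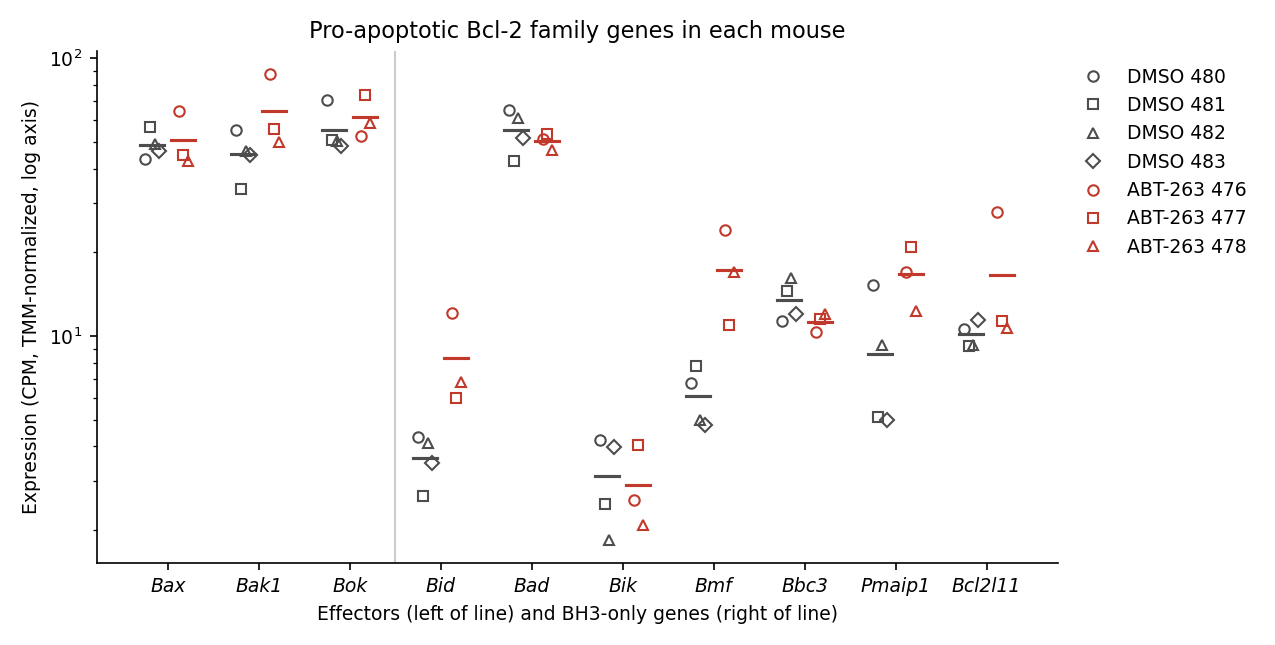
Expression of the 10 genes in each mouse (CPM with TMM normalization, log axis), DMSO in grey and ABT-263 in red, 1 symbol per mouse, with a line at the group mean. In Bid and Bmf all 3 treated mice lie above all 4 controls, while in the 3 effectors and the other 5 BH3-only genes the groups overlap.

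Among the 10 genes, 2 were higher after ABT-263 past the threshold, Bid and Bmf, and none was lower. Of all genes tested 24.2% passed in either direction, 12.4% being higher and 11.7% lower, so 2 of 10 is near the background. The groups did not overlap in the same 2 genes, against 37.1% of all genes in either direction and 18.7% with ABT-263 above DMSO. At an unadjusted p under 0.05, Pmaip1 was also higher and again none was lower. The median log2 fold change of the 10 genes was 0.34 and that of all genes tested 0.0022, and 7 of the 10 had a positive value against 50.1% of all genes. Without ABT-263-treated mouse 476 the median of the 10 was 0.17 and 1 gene, Bmf, was called.

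The effectors, which form the pores, showed no difference past the threshold. Bax, on chromosome 7 from 45461697 to 45466898, was at 43.4, 56.5, 49.1 and 46.4 CPM in DMSO-treated mice 480 to 483 and at 64.5, 44.8 and 42.7 CPM in ABT-263-treated mice 476 to 478. Mouse 476 was the highest of the 7 and mouse 478 the lowest, so the groups overlapped. Its log2 fold change was 0.05 (SE 0.17, 95% interval -0.35 to 0.45, edgeR adjusted p = 0.850), and it was -0.16 without mouse 476 and -0.000961 without DMSO-treated mouse 480. In the annotation 12.2% of the exon bases of Bax are shared with Gm45808 on the same strand.

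Bak1, on chromosome 17 from 27019810 to 27029009, was at 55.2, 33.7, 46.5 and 44.9 CPM after DMSO and at 87.7, 55.4 and 50.0 CPM after ABT-263. Here 2 of the treated mice lay above all controls and 1 below the highest control. The difference of 0.51 on the log2 scale (SE 0.23, 95% interval -0.02 to 1.05, edgeR adjusted p = 0.138) missed the threshold, and was 0.22 without mouse 476. Bok, an effector that also resides at the endoplasmic reticulum, on chromosome 1 from 93685660 to 93695764, was at 70.8, 50.8, 50.4 and 48.1 CPM after DMSO and at 52.6, 74.0 and 58.4 CPM after ABT-263. DMSO-treated mouse 480 was far above the other controls and the groups overlapped. The log2 fold change of Bok was 0.16 (95% interval -0.25 to 0.58, edgeR adjusted p = 0.535). A rise of Bak1 by up to 1.05 on the log2 scale lies within its interval, whereas those of Bax and Bok end at 0.45 and 0.58.

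Bmf changed most. Its protein is held on the actin and myosin cytoskeleton and is known as a sensor of lost cell attachment. Bmf, on chromosome 2 from 118528757 to 118549687, was at 6.75, 7.80, 4.98 and 4.77 CPM in the 4 DMSO-treated mice and at 24.1, 10.96 and 17.0 CPM in the 3 ABT-263-treated mice. The lowest treated mouse, 477, was 1.41 times the highest control. Bmf thus rose by 1.51 on the log2 scale (SE 0.29, edgeR adjusted p = 0.0129), or 2.85-fold, and by its p-value it ranked 1112 among the 17959 genes. In the 7 fits that each leave out a mouse, its log2 fold change stayed between 1.20 (without mouse 476) and 1.78 (without mouse 477) and passed the threshold in 7 of the 7, with adjusted p-values up to 0.0446. Bmf also passed under each of the 8 other settings tried, with log2 fold changes from 1.36 to 1.54.

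Bid rose as well. BID links death receptors to mitochondria, since caspase-8 cuts it into its active form. Bid, on chromosome 6 from 120891930 to 120916853, was at 4.34, 2.65, 4.11 and 3.49 CPM after DMSO and at 12.1, 5.97 and 6.85 CPM after ABT-263. All treated mice lay above all controls, with the lowest of them at 1.38 times the highest control, and mouse 476 was the highest by a wide gap. The summed macrophage markers were also highest in mouse 476, at 737 CPM, as were those of neutrophils, T cells, B cells and endothelium. The sums of the other marker lists were highest in other mice. The part of these cell types in the level of Bid was not tested. The rise of Bid was 1.18 on the log2 scale (SE 0.30, edgeR adjusted p = 0.0273), or 2.27-fold. Bid passed under the 8 other settings but in only 2 of the 7 fits with a mouse left out, those without DMSO-treated mouse 480 or ABT-263-treated mouse 477. Without DMSO-treated mouse 481, 482 or 483 its log2 fold change was 1.06, 1.25 or 1.16 (edgeR adjusted p = 0.0575, 0.0616 and 0.0680). Without ABT-263-treated mouse 476 or 478 it was 0.81 or 1.31 (edgeR adjusted p = 0.0794 and 0.0549). Over the whole table those 5 fits called between 1761 and 2801 genes, the 2 in which Bid passed 4111 and 4221, and the fit with all mice 4342.

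**Figure D2:**
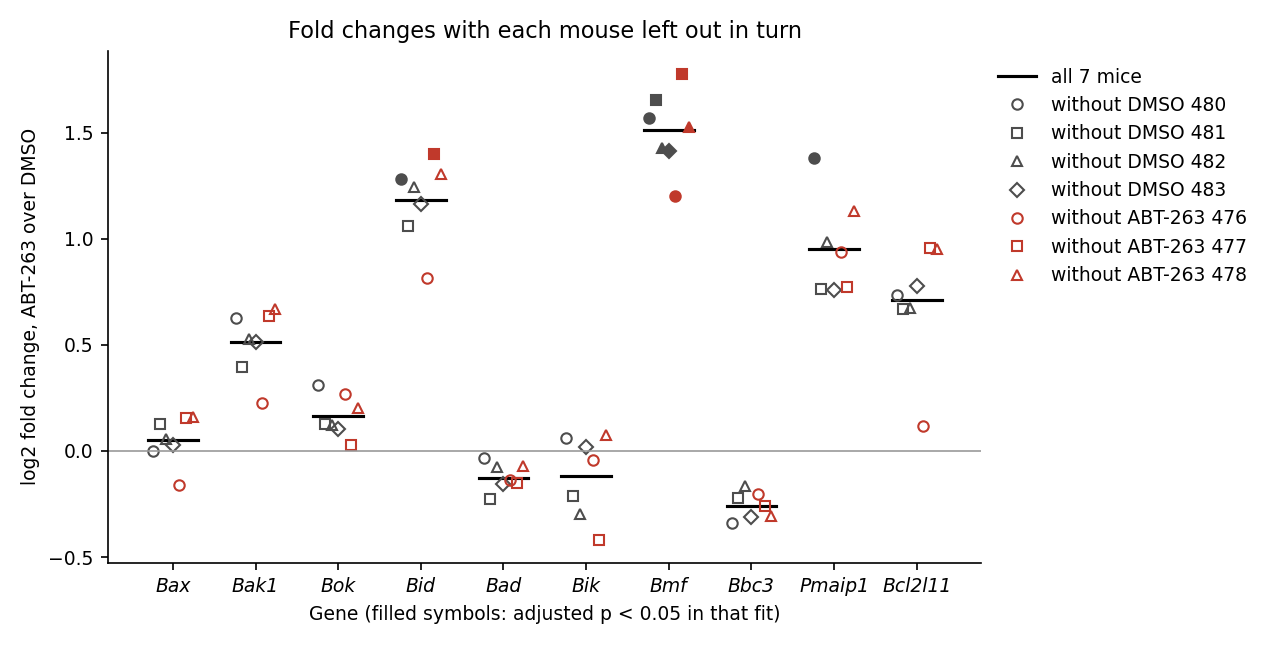
Log2 fold change (ABT-263 over DMSO) of each gene with all 7 mice (black line) and in the 7 fits that leave out a mouse (symbols), filled where the adjusted p was under 0.05 in that fit. Bmf is filled in all 7 fits and Bid in 2, and without mouse 476 the value of Bcl2l11 drops to 0.12.

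The promoters of these 2 genes are printed because they are the members that rose, in windows of 300 bases around the start site from RefSeq (GRCm38.p6), in the direction of transcription, with each GC box (GGGCGG on either strand) in capitals. For Bmf the window at the upstream end of the gene was taken, of 3 that RefSeq lists.
Bid: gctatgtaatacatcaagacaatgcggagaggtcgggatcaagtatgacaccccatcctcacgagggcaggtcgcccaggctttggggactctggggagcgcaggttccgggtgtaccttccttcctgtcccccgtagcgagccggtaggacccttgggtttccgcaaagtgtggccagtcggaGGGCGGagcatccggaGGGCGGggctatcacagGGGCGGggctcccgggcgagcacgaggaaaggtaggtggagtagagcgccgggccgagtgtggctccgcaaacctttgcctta
Bmf: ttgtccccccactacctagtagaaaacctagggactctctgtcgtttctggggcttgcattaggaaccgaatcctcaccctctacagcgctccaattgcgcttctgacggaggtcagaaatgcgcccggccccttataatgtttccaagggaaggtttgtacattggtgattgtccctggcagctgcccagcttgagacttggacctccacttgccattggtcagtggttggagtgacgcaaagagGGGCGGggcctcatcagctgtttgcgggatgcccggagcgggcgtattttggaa
The window of Bid is chr6:120916775-120917074 and that of Bmf chr2:118549637-118549936, both on the minus strand. Bid holds 3 GC boxes and Bmf 1, and 35.7% of the 32851 promoter windows of the genome hold at least 1 on either strand. Neither window contains the FOXO core GTAAACA (either strand, 3.65% of windows), the AP-1 site TGANTCA (7.81%) or the p53 decamer (8.36%). Of the other Bmf windows, the one at chr2:118544538-118544837 holds 1 p53 decamer. The GC content was 63.3% for Bid and 55.3% for Bmf against a median of 52.7% over all windows. Windows were found for 8 of the 10 genes.

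Pmaip1 and Bcl2l11 had larger means after ABT-263 but did not pass the threshold. NOXA, the product of Pmaip1, binds MCL-1, which ABT-263 does not target. Pmaip1, on chromosome 18 from 66458533 to 66465565, was at 15.3, 5.10, 9.24 and 4.97 CPM after DMSO and at 16.9, 20.9 and 12.3 CPM after ABT-263. DMSO-treated mouse 480 lay above treated mouse 478, and the other controls lay below all treated mice. Its log2 fold change was 0.95 (SE 0.41, 95% interval 0.0070 to 1.89, edgeR adjusted p = 0.123). Without mouse 480 it was 1.38 (edgeR adjusted p = 0.0249), the only fit with a mouse left out in which Pmaip1 passed, and over the 7 such fits it lay between 0.76 and 1.38.

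BIM binds all anti-apoptotic members of the family. Bcl2l11, on chromosome 2 from 128126038 to 128162547, was at 10.6, 9.23, 9.24 and 11.4 CPM after DMSO and at 27.9, 11.3 and 10.7 CPM after ABT-263. Only mouse 476 exceeded the controls, and mice 477 and 478 lay within their range. The difference of 0.71 on the log2 scale (SE 0.34, 95% interval -0.06 to 1.48, edgeR adjusted p = 0.151) was 0.12 without mouse 476 (adjusted p = 0.702). The spread of log2 CPM among treated mice was 0.78 (SD, n = 3) for Bcl2l11, the largest of the 10 genes, against 0.15 (SD, n = 4) among controls.

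The remaining BH3-only genes had negative log2 fold changes, none past the threshold. Bad, whose protein is switched off by phosphorylation through AKT and other kinases, on chromosome 19 from 6941861 to 6951899, was at 65.0, 42.8, 60.8 and 51.4 CPM after DMSO and at 51.2, 53.5 and 46.6 CPM after ABT-263. The treated mice lay within the range of the controls. Its log2 fold change was -0.13 (95% interval -0.49 to 0.24, edgeR adjusted p = 0.596). Bbc3, a p53 target whose product binds all anti-apoptotic members, on chromosome 7 from 16308393 to 16318205, was at 11.3, 14.5, 16.1 and 11.996 CPM after DMSO and at 10.3, 11.5 and 11.965 CPM after ABT-263. Its treated mice lay below 3 of the 4 controls, and the log2 fold change was -0.26 (95% interval -0.66 to 0.14, edgeR adjusted p = 0.297). Bik, a BH3-only protein of the endoplasmic reticulum, on chromosome 15 from 83526862 to 83544634, was the scarcest by counts, with 36 to 160 read pairs per library, at 4.21, 2.49, 1.85 and 3.98 CPM after DMSO and at 2.57, 4.03 and 2.08 CPM after ABT-263. The groups covered the same range, and the interval of its log2 fold change of -0.12 ran from -0.97 to 0.73 (edgeR adjusted p = 0.842).

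The make-up of the BH3-only transcripts followed from these values. Bad accounted for 58.8% ± 2.58 (SD, n = 4) of the summed BH3-only FPKM after DMSO and for 48.6% ± 2.85 (SD, n = 3) after ABT-263, with every treated mouse below every control. The share of Bmf went from 3.26% ± 1.11 to 8.11% ± 2.78 and that of Bid from 2.80% ± 0.233 to 5.70% ± 1.86, both without overlap. The share of Pmaip1 was 8.32% ± 3.44 after DMSO and 14.9% ± 3.05 after ABT-263, with overlap. The summed BH3-only level itself was 36.4 ± 5.58 FPKM after DMSO and 40.7 ± 4.10 FPKM after ABT-263, and that of the effectors 79.6 ± 6.41 and 92.4 ± 13.2 FPKM, both with overlap between the groups. Shares of a sum move together, and they were not tested. For scale, the groups did not overlap in 37.1% of all single genes tested.

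**Figure D3:**
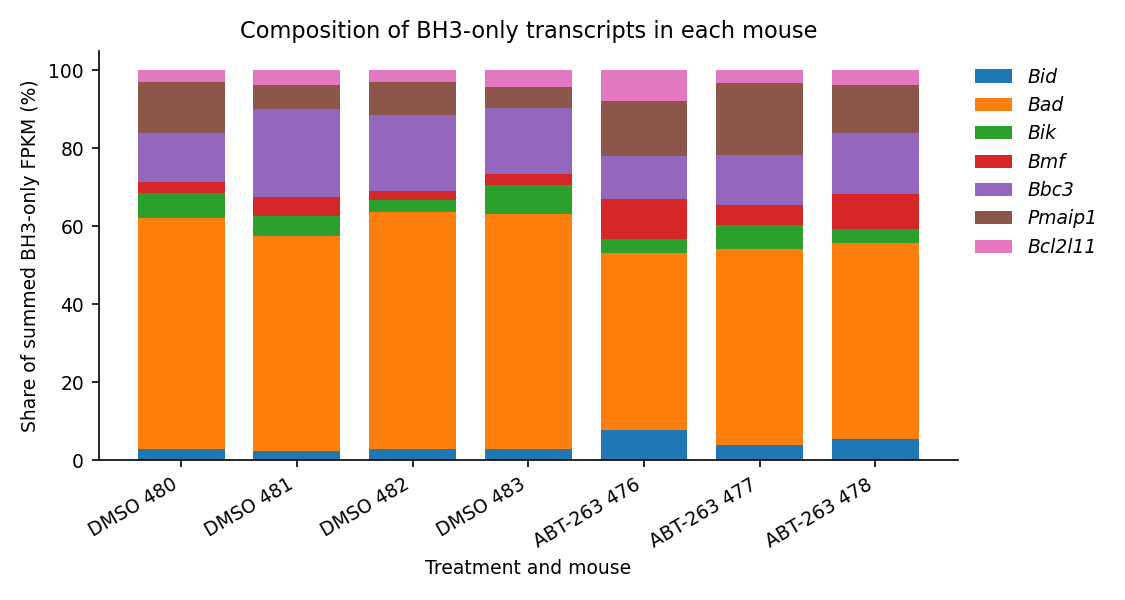
Share of each gene in the summed FPKM of the 7 BH3-only genes (percent, stacked bars from 0), 1 bar per mouse. Bad makes up 55.1% to 60.7% in the 4 DMSO-treated mice and 45.4% to 50.4% in the 3 ABT-263-treated mice.

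Of the 8 anti-apoptotic partners, 7 were tested, of which 2 were higher (Bcl2a1b and Bcl2a1d) and 1 lower (Bcl2), with a median log2 fold change of 0.28. Requiring at least 10 counts in every library drops the A1 genes Bcl2a1a, Bcl2a1b and Bcl2a1d. The median of the partners was then -0.068, and 0 of them were higher past the threshold. Bcl2 was at 36.2 ± 4.91 CPM after DMSO (SD, n = 4) and 13.1 ± 3.55 CPM after ABT-263 (SD, n = 3), a difference of -1.47 on the log2 scale (edgeR adjusted p = 0.00673), and was lower in each of the 7 fits with a mouse left out. Bcl2l1, Bcl2l2 and Mcl1 had log2 fold changes of -0.20, 0.05 and 0.28 (edgeR adjusted p = 0.478, 0.770 and 0.451). Mcl1 had 553 CPM in mouse 476 but 283 and 288 CPM in the other treated mice, against 277 to 343 CPM after DMSO, and without mouse 476 its log2 fold change was -0.12. The A1 genes are near-identical copies between which reads cannot be assigned with certainty. Bcl2a1b differed by 2.57, Bcl2a1d by 1.82 and Bcl2a1a by 2.21 on the log2 scale (edgeR adjusted p = 0.0410, 0.0447 and 0.0964). Their counts after DMSO were low, at 4 to 24, 5 to 17 and 1 to 15 read pairs per library. In the annotation 49.1% of the exon bases of Bcl2a1b are shared with Gm29094 on the same strand, and 13.3% of those of Bcl2l2 with Gm20521. With a mouse left out, Bcl2a1b passed in 2 of the 7 fits and Bcl2a1d in 1, and without mouse 476 they differed by 1.41 and 1.18.

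**Figure D4:**
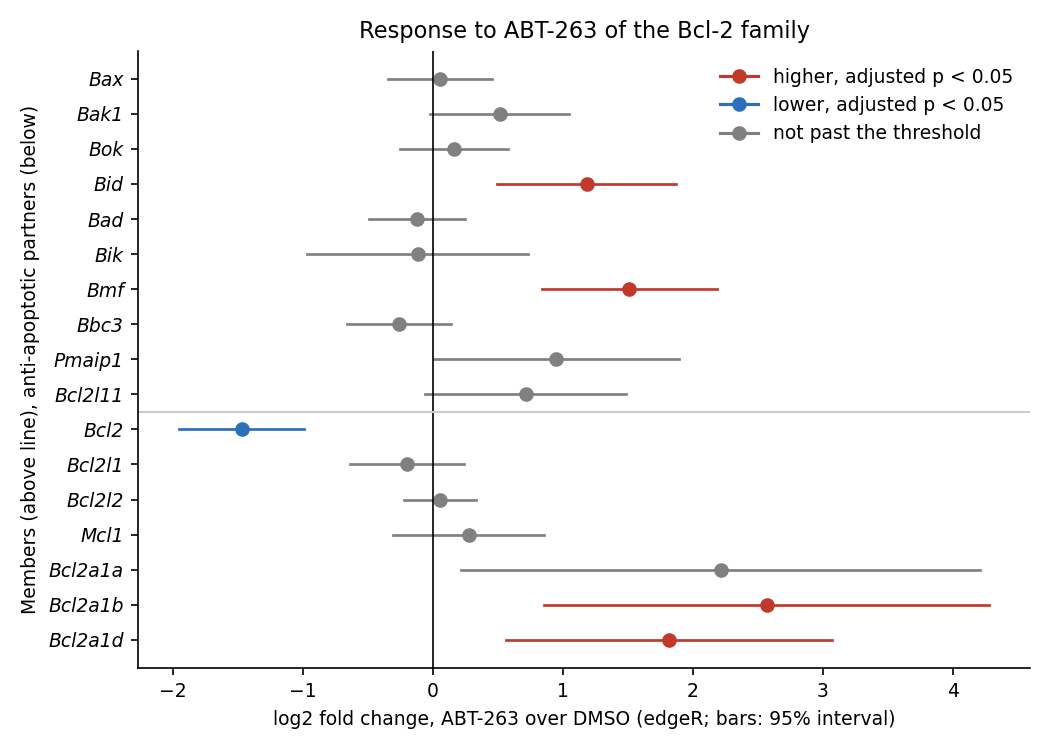
Log2 fold change (ABT-263 over DMSO, edgeR) with its 95% interval for the 10 pro-apoptotic genes and the 7 anti-apoptotic partners tested, red where higher and blue where lower at an adjusted p under 0.05. Bid, Bmf and the anti-apoptotic Bcl2a1b and Bcl2a1d stand to the right of 0 and Bcl2 to the left, while the intervals of the 3 effectors include 0. The intervals of Pmaip1 and Bcl2a1a also lie above 0, but their adjusted p did not pass.

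Levels of 3 pro-apoptotic genes were also set against that of an anti-apoptotic partner within each mouse. The FPKM ratio of Bax to Bcl2 was 8.52, 7.92, 7.65 and 7.40 in the 4 DMSO-treated mice and 22.1, 21.1 and 25.0 in the 3 ABT-263-treated mice. That ratio did not overlap between the groups although Bax itself did, Bcl2 being lower. The ratio of Bcl2l11 to Bcl2 was 0.409, 0.254, 0.282 and 0.357 after DMSO and 1.88, 1.04 and 1.227 after ABT-263. That ratio did not overlap either, although Bcl2l11 itself did. The ratio of Bak1 to Bcl2l1 was 1.02, 0.808, 1.09 and 1.11 after DMSO and 1.79, 1.44 and 1.69 after ABT-263, although neither gene passed the threshold on its own. The ratios were given no test because the fall of Bcl2 was known when they were chosen. Bcl2 alone did not overlap between the groups, so the separation of the ratios to Bcl2 is not a result apart from its fall. The groups did not overlap in 37.1% of all single genes tested, which is a share of genes and not of ratios. A ratio shows unequal change of its 2 genes only.

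**Figure D5:**
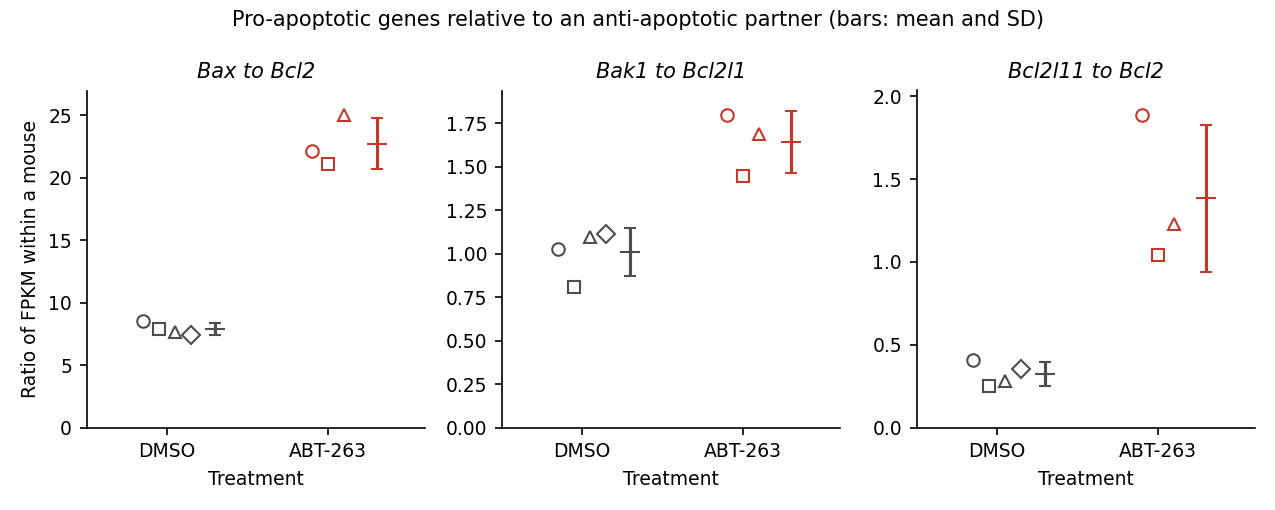
FPKM ratio of a pro-apoptotic gene to an anti-apoptotic partner within each mouse (linear axes from 0), with the mean and SD beside the points. In all 3 ratios every ABT-263-treated mouse lies above every DMSO-treated mouse, by 21.1 to 25.0 against 7.40 to 8.52 for Bax to Bcl2.

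Other genes with a BH3 domain or a Bcl-2-like fold moved both ways. Of 8, 7 were tested, 2 were higher (Bcl2l13, a mitophagy receptor, by 0.59 and Bcl2l15 by 2.00 on the log2 scale) and 2 lower (Bcl2l12 fell by 1.04 and Bcl2l14 by 1.02), with a median of 0.06. With a mouse left out, Bcl2l12 passed in 7 of the 7 fits, Bcl2l15 in 5, Bcl2l13 in 1 and Bcl2l14 in 0. The BH3-only gene Hrk was not tested, with counts of 1, 7, 8 and 1 after DMSO and 1, 0 and 0 after ABT-263.

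Among 10 genes of the steps just before and after the outer membrane, 2 were higher and 2 lower. Casp8, whose product cleaves BID, was at 10.1 ± 3.76 CPM after DMSO (SD, n = 4) and 30.5 ± 6.40 CPM after ABT-263 (SD, n = 3), higher by 1.599 on the log2 scale (SE 0.28, edgeR adjusted p = 0.00987), and passed in 7 of the 7 fits with a mouse left out. Aifm1, which encodes a flavoprotein of the intermembrane space, was higher by 1.12 (edgeR adjusted p = 0.0147), and lost the call without mouse 478 (adjusted p = 0.0557). Of the other proteins released from that space, Diablo, an antagonist of caspase inhibitors, fell by 1.02 and the nuclease gene Endog fell by 0.73 (edgeR adjusted p = 0.00910 and 0.00728), both past the threshold in 7 of the 7 fits. The annotation shares 19.3% of the exon bases of Diablo with Gm49027 on the same strand. The other 6 genes were not past the threshold, and the median log2 fold change of the 10 was 0.25.

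Of 16 transcription factors and kinases known to act on these genes or proteins, 1 was higher and 2 lower, with a median log2 fold change of -0.18. Akt1, whose product phosphorylates BAD, was higher by 1.11 on the log2 scale (SE 0.17, edgeR adjusted p = 0.00733). Foxo1, which encodes a transcription factor that can induce Bcl2l11 and Bbc3, was lower, at 78.3 ± 4.29 CPM after DMSO (SD, n = 4) and 41.8 ± 3.28 CPM after ABT-263 (SD, n = 3), and its log2 fold change was -0.90 (edgeR adjusted p = 0.00622). Both passed in 7 of the 7 fits with a mouse left out. E2f1 fell by 0.73 (edgeR adjusted p = 0.0169) and passed in 5 of the 7. Of 15 other p53 target genes, 3 were higher (Sesn2 by 0.66, Fas by 1.61 and Plk2 by 0.78) and none lower, with a median of 0.15. Between 0 and 3 of them passed with a mouse left out, and none did without DMSO-treated mouse 482 or 483 or without ABT-263-treated mouse 476 or 478.

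Markers of several cell types also differed between the 2 treatment groups. All 5 macrophage markers were higher past the threshold, with a summed level of 99.2 to 234 CPM after DMSO and 352 to 737 CPM after ABT-263, and mouse 476 had the highest sum. Of the 5 neutrophil markers 4 were tested and 2 were higher, with sums of 99.7 to 1820 CPM and 5095 to 8086 CPM. S100a8 and S100a9 made up most of these sums. Csf3r was at 1.35 to 3.72 CPM after DMSO and 10.7 to 78.0 CPM after ABT-263, and Cxcr2 at 0.80 to 12.7 and 13.6 to 66.4 CPM. Ly6g, not tested, was at 13.98 CPM in mouse 476 but at 0.10 and 0.17 CPM in mice 477 and 478, against 0 to 0.25 CPM after DMSO. All 5 endothelial markers were higher (100.5 to 209 and 317 to 417 CPM) and 3 of 5 fibroblast markers were (3692 to 5135 and 5768 to 8073 CPM). Summed T cell markers overlapped (11.01 to 19.97 and 9.43 to 34.7 CPM), with 0 of 5 past the threshold in edgeR, and summed B cell markers were at 138 CPM in mouse 476 against 1.64 to 11.01 CPM elsewhere. Summed skeletal muscle markers were at 25675 to 51580 CPM after DMSO and 20835 to 28607 CPM after ABT-263, with 1 of 5, Tnnc2, lower by edgeR (log2 fold change -1.65, adjusted p = 0.0104). Of the basal keratinocyte markers Itga6 was higher and Krt15 lower (0.60 and -1.45 on the log2 scale, edgeR adjusted p = 0.0316 and 0.0312). No marker was at 0 in every library. The part of these cell types in the levels of Bid, Bmf or Bcl2l11 was not tested.

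The members with the widest range of log2 CPM over the 7 libraries were Bmf (2.32), Bid (2.16) and Pmaip1 (2.05). The protein-coding genes most like Bmf over the 7 libraries were Zfp36l1, which encodes an RNA-binding protein of mRNA decay, and Rgs3, with Pearson's r of 0.997 and 0.992. Those most like Bid were Man2a1, a Golgi mannosidase gene, and Tyrobp, an adaptor of myeloid and natural killer cells, with r of 0.998 and 0.997. For Pmaip1 they were Ppp1ca and Arf6, with r of 0.986 and 0.985. These are descriptions over 7 libraries that share the treatment contrast, among 13679 candidate genes, of which 643 had r over 0.9 with Bmf, 1029 with Bid and 260 with Pmaip1.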

How the data were processed

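Whole skin RNA was sequenced for 7 mice, 1 library each. According to the methods, the authors aligned reads to mm10 with STAR (2.7.9a) and assigned unique, properly paired reads to Ensembl genes by strand with featureCounts (Subread 1.6.2), without mitochondrial genes. The deposited counts are not normalized. A second deposited table holds the variance-stabilizing transform of DESeq2, close to log2 counts, and served only as an alternative. Mice were grouped by the labels, which name no batch, litter or extraction day.

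Symbols, positions and exon lengths came from GENCODE M21 (GRCm38), which holds 55190 of the 55450 identifiers, and BH3 coding bases from its transcripts. It is not the annotation build the authors name. Counts were analyzed in R 4.3.3 with edgeR 4.0.16 (filterByExpr, TMM, robust quasi-likelihood fit, no covariate). The fit was also run on simulated counts, in which a far smaller share of genes changed than was called here. No conclusion is drawn from that run. Standard errors are the log2 fold change divided by the square root of F, and 95% intervals use the total (residual plus prior) degrees of freedom of the fit. Lists are described by counts and medians. Alternatives were the DESeq2 1.42.0 Wald test, its size factors in edgeR, every gene with a count, at least 10 counts in every library, protein-coding genes only, offsets for transcript length and GC content (mgcv 1.9.3), counts thinned to the smallest library, limma 3.58.1 on the variance-stabilized values, and each mouse left out.

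The members and lists were chosen with earlier results of these data known. Named are the 10 members, the anti-apoptotic partners, list genes past the threshold and, for the 3 members of widest range, the 2 most similar genes with a mean of at least 1 CPM. Hrk lies outside this rule and was named after its values were seen. Some genes of the list of steps around the outer membrane are not reported here, and its counts and median leave them out.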

Additional observations from a re-analysis of the deposited data

Results flagged for a closer look

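Among the 4 DMSO-treated mice, Dixon's ratio, the gap of the highest or lowest mouse over the range, passed its critical value in 6 of 32 results. About 1 in 20 groups does so by chance, or 1.6 of these. Mouse 480 stood apart for Bok (ratio 0.882), at 70.8 CPM against 48.1 to 50.8 CPM, for Bcl2l1 (0.847), at 102.7 CPM against 77.0 to 80.9 CPM, for Bcl2l2 (0.888), at 36.7 CPM against 40.3 to 40.8 CPM, and for the summed basal keratinocyte markers (0.909), the highest of the controls. Without mouse 480 the log2 fold change of Bok was 0.31 (edgeR adjusted p = 0.169). Mouse 481 stood apart for the summed hair follicle markers (0.997) and mouse 483 for the summed adipocyte markers (0.833), at 1499 CPM against 574 to 729 CPM.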

How the results depend on the processing

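No paired analysis was possible because the mouse numbers of the 2 groups are not shared. When single mice were left out, genes called over the whole table numbered between 1761 (mouse 482 left out) and 4221 (mouse 477 left out), against 4342, and under the other settings between 3247 and 5890, the highest with the DESeq2 Wald test. Between 1 and 3 of the 10 genes were higher with a mouse left out, and 2 under each of the 8 other settings. None was called lower in any fit. The median log2 fold change of the 10 lay between 0.17 and 0.47 with a mouse left out and between 0.30 and 0.44 otherwise. Among single genes, directions turned only for those not past the threshold. With a mouse left out Bik lay between -0.42 and 0.0763 (0.0593 without mouse 480, 0.0201 without 483 and 0.0763 without 478), Bax between -0.16 and 0.16 (-0.000961 without mouse 480), Mcl1 between -0.12 and 0.47 and Bcl2l2 between -0.00966 and 0.15. With length and GC trends removed Bik was 0.0135 and Bcl2l2 -0.0132, and Bax went from 0.05 to 0.31. Of the A1 copies, Bcl2a1b passed in 5 and Bcl2a1d in 4 of the 7 other settings that tested them. The cause of these changes was not tested. Among the 10 genes the fewest read pairs behind a value were 36, for Bik in DMSO-treated mouse 482. Among the anti-apoptotic partners tested the fewest were 1, for Bcl2a1a in DMSO-treated mouse 483.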
